A study of Homo sapiens with 9 samples.

Results

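The cytosolic ribosomal protein genes were followed in Rh30 cells, an established line of PAX3-FOXO1 fusion-positive rhabdomyosarcoma (FP-RMS), grown in 3 ways and measured on Affymetrix U133 Plus 2.0 arrays. Members were all probe sets whose only gene symbol in the array annotation was RPL or RPS followed by a number (with an optional final A or L), or was RPSA, RPLP0, RPLP1, RPLP2 or RPS4X. The rule found 117 of 54613 probe sets and 56 of 19775 genes, 35 of them from the large and 21 from the small ribosomal subunit. One probe set stands for each gene, the one of highest mean signal, unless another is named. All 56 genes were tested and no filter on low values was applied.

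Each growth condition had 3 arrays, described as biological triplicates. All 9 samples came from the same PAX3-FOXO1-positive line. They differed in growth form together with medium and host, and the parts of these cannot be told apart. Adherent cells grew as monolayers in medium with 10% FBS. Spheres had spent 48 h in Neurobasal medium, for which no serum is named, with insulin at 50 µg/ml, EGF at 40 ng/ml, bFGF at 80 ng/ml and B27 at 1X. Xenografts were human tumors grown in SCID/beige mice, which lack functional lymphocytes but keep other host cells. The methods for the arrays give 1000000 adherent cells injected in PBS into the gastrocnemius muscle, whereas the sample labels give Matrigel and the flank, with adherent or sphere cells as the source, so the route is given differently by the 2 sources. Values are log2 RMA signals, on which a difference of 1 is a 2-fold difference, and a change was called at a limma adjusted p under 0.05. These are signals of total RNA from many cells, so fewer cells of a type and less RNA per cell cannot be told apart.

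The 3 groups were checked against marker genes. MYOD1, a master regulator of muscle fate that marks the labelled cell type, had a log2 signal of 10.65 to 11.17 over the 9 arrays. Over the 7 measured myogenic markers the mean log2 signal was 9.5 to 9.62 in adherent cells, 9.12 to 9.16 in spheres and 9.02 to 9.19 in xenografts. Against adherent cells 4 of the 7 were called lower and 0 higher in spheres (median -0.38) and likewise in xenografts (median -0.51). Markers of fibroblasts and of adult skeletal muscle were higher in the xenografts. The mean log2 signal of 8 fibroblast genes was 6.77 to 7.20 there against 6.04 to 6.21 in adherent cells and 5.91 to 6.11 in spheres, and 5 of the 8 were called higher against adherent cells. For 6 genes of adult skeletal muscle the means were 5.21 to 5.37, 4.14 to 4.22 and 4.08 to 4.21 in the same order, with 3 of 6 called higher against adherent cells. Means of 5 leukocyte genes stayed between 3.90 and 4.13 on all arrays, with PTPRC, the pan-leukocyte marker, between 2.44 and 2.64. For 5 endothelial genes the means were 4.32 to 4.69 in xenografts, 4.23 to 4.34 in adherent cells and 4.17 to 4.48 in spheres, with 1 of 5 called higher against adherent cells, and for 2 blood genes they were 5.63 to 5.81, 5.35 to 5.54 and 5.40 to 5.44, with 1 of 2 called higher. The part of other cells and of mouse RNA in the xenograft results below was not tested.

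Ribosomal proteins are the structural proteins of the cytosolic ribosome, which translates nuclear-encoded mRNAs. They are needed in near-equal amounts, and their mRNAs belong to the most abundant of any growing cell. Most of these mRNAs begin with a 5' terminal oligopyrimidine (TOP) tract, a C at the first base followed by a run of C and T. Through this tract LARP1 and the mTORC1 kinase adjust their translation to nutrients and growth factors, so that the amount of protein made can change while the mRNA level does not.

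The tract is shown here because it is the sequence feature that the genes share and that the choice of members did not use. RefSeq start windows on GRCh38.p14 were given for 48 of the 56 genes. The letters searched were a C at the annotated first base followed by at least 4 bases that are each C or T, on the sense strand. They stood at the annotated start of 34 of the 48 genes (70.8%), against 5.14% of all 27305 genes in the table and 7.46% of 67 mitochondrial ribosomal protein genes, whose products belong to another ribosome. Within 10 bases of the start on either side, the letters were found in 42 of the 48 (87.5%) against 38.4% of all genes. By single windows, 4.07% of all 35116 held them at the start. The windows printed run from 20 bases before the annotated first base to 10 bases from it on, 5' to 3', and the capitals mark the run of C and T that opens the transcript, as far as the window reaches.
RPL36, chr19:5690275-5690304, plus strand: gagttccgcgcggcgccagcCCTTCCgcca
RPL31, chr2:101002269-101002298, plus strand: ctcccacaatccttcgcgctCTTCCTTTCC
RPS25, chr11:119018334-119018363, minus strand: ccgtttctgagcagcgcttcCTTTTTgtcc
RPL37A, chr2:216498824-216498853, plus strand: cctgcgcaccgcgtctcttcCTTTCTgggc
RPL41, chr12:56116613-56116642, plus strand: gtagacggaacttcgcctttCTCTCggcct
RPL39, chrX:119791621-119791650, minus strand: gctcgttcttccgccagcttCCCTCCTCTT
RPS27, chr1:153990742-153990771, plus strand: gcaggatttccgctttcgctCCTTTCCggc
RPS27L, chr15:63157468-63157497, minus strand: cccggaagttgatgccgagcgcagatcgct
RPL10L, chr14:46651772-46651801, minus strand: gcgcgcaggcgtagttaagagagcgcattt
The first 7 windows carry the run at the start, while the windows of the paralogs RPS27L and RPL10L do not hold these letters there. Their absence was not particular to paralogs. Core genes such as RPL3, RPL19 and RPS15 lacked them at the start too, and RPL6, RPL27, RPS29 and RPS4X also within 10 bases. A match is a description of the sequence and not a measured transcript start.

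The ribosomal protein signals lay at the top of the array's scale. The median of the 56 genes was 13.78 on the log2 scale, against 6.08 over all genes, and 46 of the 56 were at 13 or above. The highest signal of any probe set was 14.46 to 14.58 on the 9 arrays, and it belonged to RPL41 or RPL39 on 8 of the 9. Of the 274 probe sets with the highest means (the top 0.5%), 65 were members and they covered 47 of the 56 genes. Since the signals of different probe sets depend on their probes, this order is one of position on the scale and not of mRNA amounts. The level at which the scanner saturates is not given in the sources used here, so how close these signals are to it was not tested.

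Differences between groups were small where signals were highest, for members and for all probe sets of like signal. The values for all probe sets include the members, and probe sets outside the members were not summarized apart. Among the 36 probe sets with a mean of 14 or more, 19 were members, and the median absolute log2 difference of spheres against adherent cells was 0.033 for those members and 0.031 for all 36. Between 13 and 14 the same medians were 0.10 for 43 member probe sets and 0.15 for all 176. Between 8 and 10 they were 0.18 for 9 member probe sets and 0.33 for all 6506. The share of all probe sets called in spheres fell from 50.0% between 8 and 10 to 2.78% at 14 or more, and in xenografts from 41.1% to 0%.

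**Figure D1:**
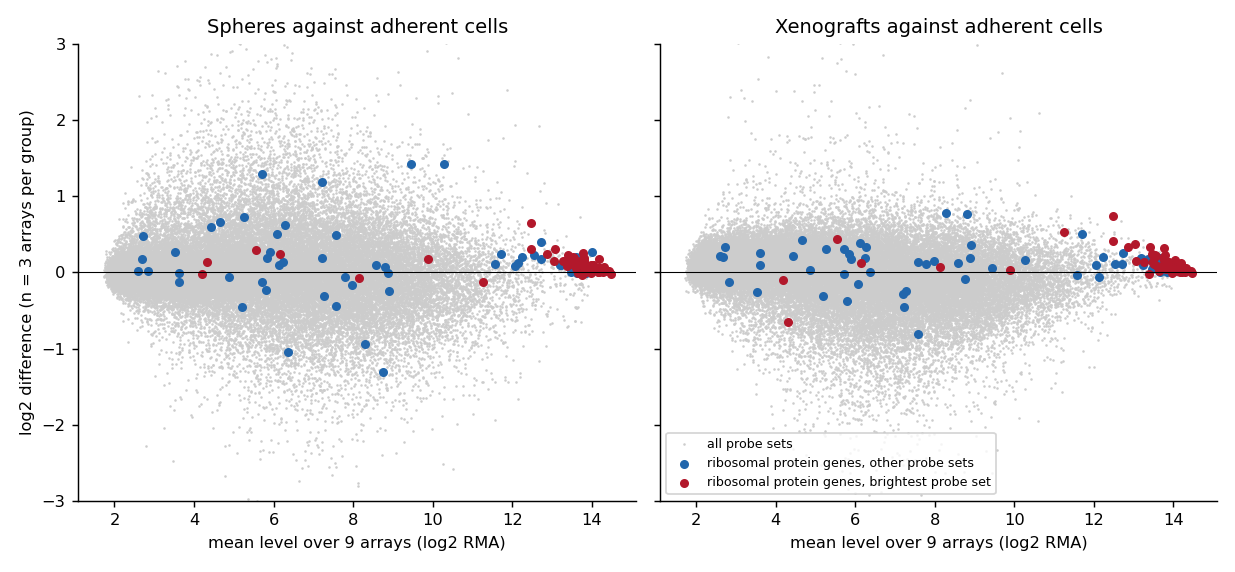
Log2 difference of spheres (left) and xenografts (right) against adherent cells, on the y axis, by mean log2 RMA signal over 9 arrays, on the x axis. Each point is a probe set, red for the probe set that represents a ribosomal protein gene, blue for the other probe sets of these genes and grey for all others, and grey points beyond 3 in either direction are not drawn. Most red points lie at 13 or above and close to 0, while blue points at lower signals reach 1.43 in spheres.

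Replicate arrays differed little for these genes. The median SD between replicates was 0.044 log2 units for the 56 genes and 0.137 for all genes. The limma fit draws the variance of every probe set towards a common value, here an SD of 0.141, which is above what most members showed. When the variance was instead allowed to depend on the signal, with robust estimation, 12 members were called higher in spheres in place of 4 and 19 in xenografts in place of 8, while the shares over all genes were 14.2% and 13.1%.

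Spheres were compared with adherent cells to ask how these mRNAs differed between sphere and monolayer culture. RPL36, RPL3, RPL10L and RPL31 rose, and no member fell. The 4 of 56 genes compare with 13.5% of all genes called higher, and the 0 of 56 with 16.3% called lower. At an unadjusted limma p under 0.05 the counts were 11 higher and 0 lower, against 17.3% and 21.2% of all genes. The 4 genes called were large subunit genes or their paralog, while with the variance trend the small subunit genes RPS12 (adjusted p = 0.0035), RPS27 (adjusted p = 0.0066) and RPS9 (adjusted p = 0.010) were called higher too. The median log2 difference was 0.09 for members and -0.04 for all genes, and 48 of 56 members were above 0.

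RPL36, a protein of the large subunit, had the largest rise. Its log2 signals were 11.99, 12.00 and 12.04 in adherent cells, 12.63, 12.65 and 12.68 in spheres, and 12.85, 12.73 and 12.68 in xenografts. Every sphere and xenograft array lay above every adherent array, while the lowest xenograft array and the highest sphere array both read 12.68. The difference was 0.64 ± 0.09 (SE) in spheres, a fold of 1.56 (adjusted p = 0.00015), and 0.75 ± 0.09 in xenografts, a fold of 1.68 (adjusted p = 0.00011). Its other probe set, 231658_x_at, read 2.50 to 2.88 on all arrays, near the bottom of the scale, and was not called in either comparison.

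RPL3, which reaches towards the peptidyl transferase center, read 12.87, 12.90 and 12.98 in adherent cells, 13.26, 13.18 and 13.24 in spheres, and 12.95, 13.06 and 13.17 in xenografts. The spheres stood above the adherent cells without overlap, by 0.31 ± 0.09 (adjusted p = 0.025). The xenografts lay between them and overlapped the adherent range, with a difference of 0.15 (adjusted p = 0.27). The call in spheres was lost without adherent replicate 1 or 2 or sphere replicate 1 or 3, at differences of 0.29 to 0.30.

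RPL31, at the rim of the nascent chain exit tunnel, read 13.58, 13.52 and 13.63 in adherent cells, 13.82, 13.85 and 13.82 in spheres, and 13.90, 13.88 and 13.91 in xenografts. The 3 groups did not overlap. The rise was 0.25 ± 0.08 in spheres (adjusted p = 0.040) against 0.32 ± 0.08 in xenografts (adjusted p = 0.016). The sphere call was lost when any one of the 6 adherent and sphere arrays was left out, with differences of 0.22 to 0.28, and after each array was centered on its median, at 0.21. Of the settings that left out an array, only the one without adherent replicate 2 ended the call in xenografts, at 0.29.

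RPL41 and RPS15A are members of high signal that the main fit did not call. RPL41, a very short protein and the member with the highest mean signal, read 14.48, 14.48 and 14.49 in adherent cells, 14.46, 14.45 and 14.47 in spheres, and 14.49, 14.47 and 14.46 in xenografts. All sphere values were below the adherent ones, by 0.02, with a 95% interval of -0.20 to 0.15 (adjusted p = 0.89). RPS15A, of the small subunit, read 13.96, 13.98 and 13.98, then 14.05, 14.04 and 14.05, then 14.14, 14.12 and 14.14 in the same order of groups. Its groups did not overlap, yet the differences of 0.07 in spheres (adjusted p = 0.59) against 0.16 in xenografts (adjusted p = 0.17) were not called. Under the variance trend the xenograft difference was called (adjusted p = 0.0082) and the sphere difference was not (adjusted p = 0.20).

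Such small separated differences were frequent. In 35 of the 56 genes (62.5%) all 3 sphere arrays lay above all 3 adherent arrays, against 21.1% of all genes, and in 2 (RPL41 and RPS27L) all lay below, against 26.6%. For xenografts against adherent cells 30 of 56 lay above, against 24.4% of all genes, and 1 (RPL36A) lay below, against 19.5%. These counts depended on how the arrays were scaled to each other. With a further quantile normalization they were 24 and 18 of 56, against 22.0% and 26.3% of all genes. After each array was centered on its median they were 16 and 16 of 56, against 18.4% and 19.1%. With quantile normalization the median difference was 0.06 for members and -0.05 for all genes in spheres, and 0.05 for members and 0.07 for all genes in xenografts. After centering it was 0.05 for members and -0.08 for all genes in spheres, and 0.03 for both in xenografts.

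**Figure D2:**
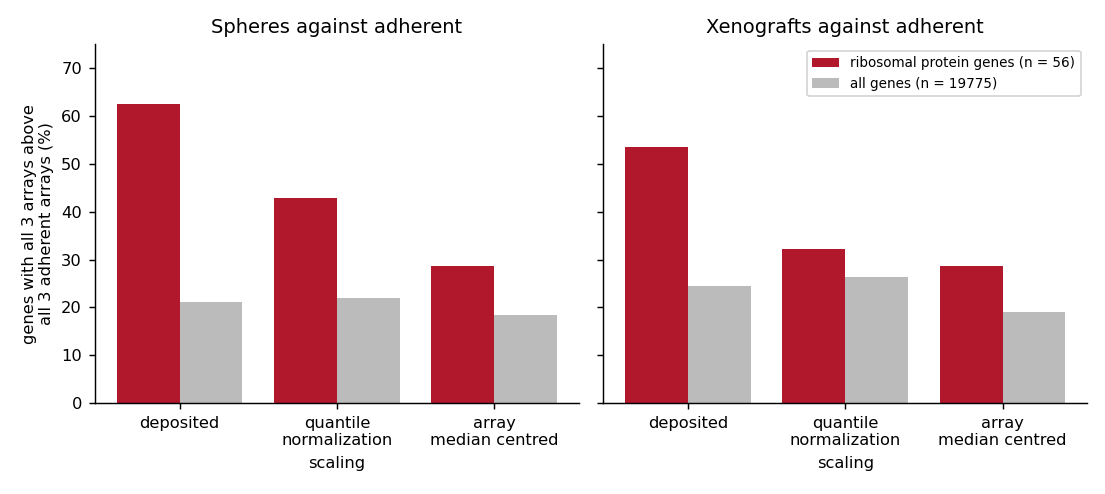
Percent of genes (y axis, from 0) whose 3 sphere arrays (left) or 3 xenograft arrays (right) all lay above the 3 adherent arrays, for the 56 ribosomal protein genes in red and all 19775 genes in grey, under 3 scalings of the arrays (x axis). The share of ribosomal protein genes fell from 62.5% to 42.9% and 28.6% in spheres and from 53.6% to 32.1% and 28.6% in xenografts, while the share of all genes stayed between 18.4% and 26.3%.

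Xenografts were compared with adherent cells to ask how growth in an animal differed from growth on plastic. RPL36, RPS27L, RPL10L, RPS25, RPL8, RPL19, RPS9 and RPL31 rose, and RPL36A fell. The 8 of 56 genes compare with 12.6% of all genes called higher, and the 1 of 56 with 14.3% called lower. The median log2 difference of members was 0.09 and that of all genes 0.08. All 21 small subunit genes had a difference above 0, with a median of 0.12 and 3 of them called, while the 35 large subunit genes had a median of 0.08 with 5 called higher and 1 lower.

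RPS27L, a paralog of RPS27 and a known target of p53, was lowest in spheres and highest in xenografts. Its log2 signals were 11.11, 11.12 and 11.12 in adherent cells, 11.00, 10.99 and 10.99 in spheres, and 11.78, 11.57 and 11.61 in xenografts. The 3 groups did not overlap, and the xenografts were above adherent cells by 0.54 ± 0.09, a fold of 1.45 (adjusted p = 0.0012), and above spheres by 0.66 ± 0.09, a fold of 1.58 (adjusted p = 0.00012). The sphere difference was -0.13 (adjusted p = 0.37). Both further probe sets of the gene were also higher in xenografts than in spheres, with 222487_s_at at 0.61 (adjusted p = 0.00083) and 238935_at at 1.05 (adjusted p = 5.5e-05). Against adherent cells they differed from each other. At 222487_s_at the spheres stood at -0.25 (adjusted p = 0.12) and the xenografts rose by 0.36 (adjusted p = 0.030), whereas at 238935_at the spheres fell by 1.04 (adjusted p = 7.5e-05) and the xenograft difference was 0.01 (adjusted p = 0.96). RPS27 itself, a zinc finger protein of the small subunit, read 13.41, 13.44 and 13.43 in adherent cells, 13.57, 13.66 and 13.59 in spheres, and 13.66, 13.66 and 13.61 in xenografts. Both other groups lay above adherent cells without overlap, by 0.18 (adjusted p = 0.13) and 0.21 (adjusted p = 0.080), and neither difference was called. Under the variance trend both were called (adjusted p = 0.0066 and 0.0034).

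RPS25, which is needed for translation from several viral internal entry sites, read 12.15, 12.45 and 12.13 in adherent cells, 12.46, 12.64 and 12.54 in spheres, and 12.86, 12.67 and 12.43 in xenografts. Its replicates had SDs of 0.182, 0.0881 and 0.219, above the median SD of the members, and the xenograft and adherent ranges overlapped. The xenograft difference was 0.41 ± 0.13 (adjusted p = 0.040), and the call was lost without adherent replicate 1 (0.36) or 3 (0.35), without xenograft replicate 1 (0.31) or 2 (0.40), without sphere replicate 2 or 3 (0.41 in both), and after centering each array on its median (0.36).

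RPL8, which sits close to the peptidyl transferase center, read 12.87, 12.76 and 12.97 in adherent cells, 12.99, 13.04 and 13.03 in spheres, and 13.24, 13.19 and 13.27 in xenografts. The 3 groups did not overlap, and the xenografts were above adherent cells by 0.37 ± 0.09 (adjusted p = 0.011). RPL19, another protein at the exit tunnel, read 13.19, 13.18 and 13.28, then 13.45, 13.44 and 13.45, then 13.52, 13.51 and 13.61. It rose by 0.33 ± 0.08 in xenografts (adjusted p = 0.014), and its 0.23 in spheres was not called (adjusted p = 0.070). Under the variance trend this sphere difference was called (adjusted p = 0.0029). RPS9, of the small subunit, read 12.67, 12.58 and 12.79, then 12.91, 12.94 and 12.90, then 12.93, 13.03 and 13.08, a rise of 0.33 ± 0.09 in xenografts (adjusted p = 0.023). Without adherent replicate 2 the calls of RPL8 (0.31) and RPL19 (0.31) were lost, and that of RPL19 also without adherent replicate 1 (0.32) and under quantile normalization (0.25). Whether the RPS9 call held when single arrays were left out is not given here, so it is not to be read as stable.

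**Figure D3:**
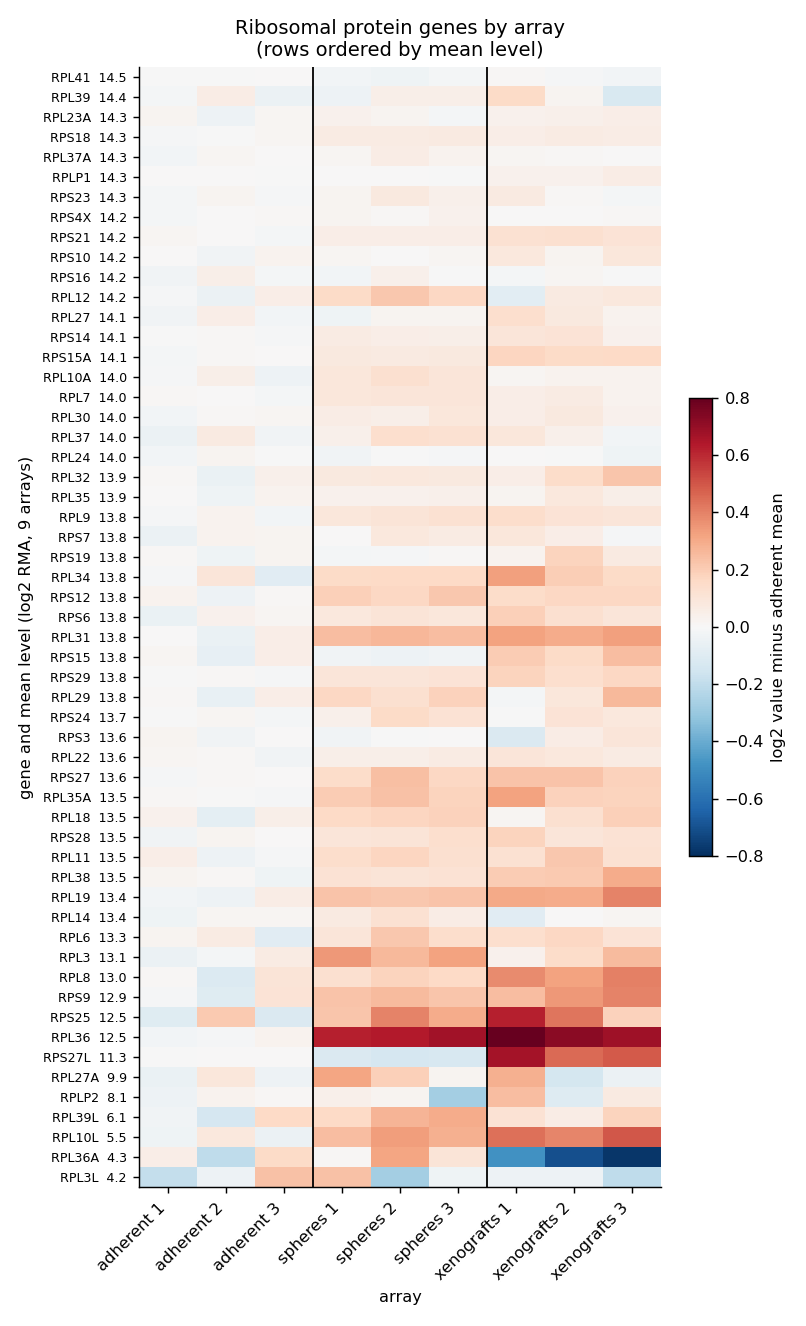
Log2 RMA value of each of the 56 ribosomal protein genes on each of the 9 arrays, as the difference from the gene's adherent mean (color scale, from -0.8 to 0.8), with genes ordered by mean log2 signal (given beside the name). RPL36 stands out in spheres and xenografts, RPS27L in xenografts and RPL36A, in blue, in xenografts, while the genes above a signal of 14 are nearly without color.

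RPL36A was the only member called lower, and its 2 measures differed. The probe set that belongs to it alone, 243201_at, had a low log2 signal of 4.54, 4.28 and 4.64 in adherent cells, 4.49, 4.8 and 4.59 in spheres, and 4.0, 3.78 and 3.71 in xenografts. All xenograft values were below all others, by 0.66 ± 0.13 (adjusted p = 0.0031) against adherent cells and by 0.80 ± 0.13 (adjusted p = 0.00042) against spheres. A probe set annotated to RPL36A and to its readthrough with HNRNPH2, 201406_at, is outside the rule and had a mean log2 signal of 13.34. There the xenografts were higher than adherent cells by 0.19, without a call (adjusted p = 0.13).

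RPL27A and the stalk protein RPLP2 also had probe sets annotated together with a small nucleolar RNA of their introns, outside the rule. Their log2 differences were 0.07 and 0.02 in spheres and 0.11 and 0.11 in xenografts, none of them called.

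Xenografts against spheres separated 3 members. RPS27L and RPS15 rose and RPL36A fell. The 2 of 56 genes compare with 25.7% of all genes called higher, and the 1 of 56 with 18.3% called lower. The median difference of members was 0.02, against 0.13 for all genes, and it was -0.0022 after quantile normalization. RPS15, a small subunit protein near the decoding site, read 13.72, 13.64 and 13.76 in adherent cells, 13.68, 13.67 and 13.68 in spheres, and 13.91, 13.86 and 13.95 in xenografts. The xenografts stood above spheres by 0.23 ± 0.08 (adjusted p = 0.044), and that call was lost when any one of the 9 arrays was left out, with differences of 0.21 to 0.26, and under quantile normalization (0.20) and centering on the median (0.22). Groups that did not overlap were counted in 16 members above, against 32.3% of all genes, and in 6 below, against 20.5%.

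Members were also taken by their role in the ribosome. The acidic stalk, which recruits elongation factors, was measured by RPLP1, RPLP2 and RPL12, and by the probe set of highest signal 0 of the 3 were called in any comparison, where the shares over all genes were 12.6% to 25.7% higher and 14.3% to 18.3% lower. RPLP1 read 14.26 on all 3 adherent arrays, 14.27, 14.27 and 14.26 in spheres, and 14.29, 14.30 and 14.32 in xenografts. Its sphere difference was 0.00 with a 95% interval of -0.17 to 0.18, and the sign turned under both other scalings. RPL12, which forms the base of the stalk, read 14.10, 14.07 and 14.16 in adherent cells, 14.27, 14.33 and 14.28 in spheres, and 14.03, 14.18 and 14.20 in xenografts. The spheres lay above both other groups, by 0.18 against adherent cells (adjusted p = 0.18) and 0.15 against xenografts (adjusted p = 0.18). With the variance trend both differences were called (adjusted p = 0.018 and 0.030). Its other probe set, 214271_x_at, rose by 0.26 in spheres (adjusted p = 0.038). For RPLP2 the low-signal probe set 217670_at was lower in xenografts than in spheres by 0.52 (adjusted p = 0.043). The probe set that stands for RPLP2, 200908_s_at, had a difference of 0.14 in the other direction, without a call (adjusted p = 0.35).

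RPL11, which together with RPL5 and 5S rRNA binds and inhibits MDM2, read 13.44, 13.34 and 13.37 in adherent cells, 13.53, 13.56 and 13.51 in spheres, and 13.51, 13.60 and 13.51 in xenografts. Both other groups lay above adherent cells without overlap, by 0.15 (adjusted p = 0.25) and 0.15 (adjusted p = 0.20), and the 95% intervals were -0.04 to 0.33 and -0.03 to 0.34. Under the variance trend both differences of RPL11 were called (adjusted p = 0.035 and 0.032). Of the 18 genes listed for Diamond-Blackfan anaemia, an inherited failure of red cell production from loss of one copy of a ribosomal protein gene, 13 were measured and 0 were called in any comparison, beside the same shares over all genes of 12.6% to 25.7% higher and 14.3% to 18.3% lower. With the variance trend 4 rose in spheres and 5 in xenografts against adherent cells. Their medians were 0.10, 0.11 and 0.02 for spheres against adherent cells, xenografts against adherent cells and xenografts against spheres.

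Tissue-restricted or stress-linked paralogs, close copies of core ribosomal proteins, were taken as a list. Of 16 such genes and their partners 14 were measured, of which 3 rose and 1 fell in spheres (13.5% and 16.3% of all genes), and 4 rose and 2 fell in xenografts (12.6% and 14.3% of all genes), both against adherent cells. RPL10L, a retrogene copy of RPL10 known from the testis, had low log2 signals of 5.27, 5.39 and 5.25 in adherent cells, 5.55, 5.64 and 5.59 in spheres, and 5.74, 5.69 and 5.80 in xenografts. The 3 groups did not overlap, and the rises were 0.29 ± 0.09 in spheres (adjusted p = 0.028) against 0.44 ± 0.09 in xenografts (adjusted p = 0.0035). The sphere call was lost without adherent replicate 1 (0.27) or 3 (0.26) and without sphere replicate 2 (0.26) or 3 (0.29), and under both other scalings (0.23 and 0.25). RPL10, which shares most of its sequence with RPL10L, had no probe set with a single symbol, and cross-hybridization between the pair was not tested.

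RPL3L, the paralog of RPL3 found in striated muscle, read 4.05, 4.20 and 4.47 in adherent cells, 4.47, 3.97 and 4.21 in spheres, and 4.20, 4.20 and 4.03 in xenografts, so the groups overlapped. Its xenograft difference was -0.09 with a 95% interval of -0.41 to 0.22. RPL39L, the testis paralog of RPL39, read 6.0, 5.90 and 6.19, then 6.19, 6.30 and 6.33, then 6.15, 6.09 and 6.21, and was not called in spheres at 0.24 (adjusted p = 0.10). RPL39 itself had a sphere difference of 0.02, and its interval was -0.19 to 0.23.

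3 paralogs outside the naming rule were called. RPL22L1, the paralog of RPL22, read 9.74, 9.79 and 9.69 in adherent cells, 10.42, 10.59 and 10.46 in spheres, and 10.33, 10.49 and 10.33 in xenografts. It rose by 0.75 ± 0.09 in spheres (adjusted p = 8.3e-05) and by 0.64 ± 0.09 in xenografts (adjusted p = 0.00049), while RPL22 differed by 0.05 (adjusted p = 0.71) and 0.08 (adjusted p = 0.48). RPL26L1 read 11.00, 10.89 and 11.05, then 10.91, 10.82 and 10.70, then 11.60, 11.46 and 11.45, a rise of 0.52 ± 0.10 in xenografts (adjusted p = 0.0024). All its xenograft values lay above both other groups, as in RPS27L. The sphere and adherent values of RPL26L1 overlapped, and their difference was not called. RPL7L1, a nucleolar protein of ribosome assembly, fell by 0.28 in spheres (adjusted p = 0.030) and by 0.35 in xenografts (adjusted p = 0.013). Its sphere call was lost without any one adherent array or sphere replicate 2 or 3 (differences of -0.25 to -0.30) and under quantile normalization (-0.21), and its xenograft call without adherent replicate 3 (-0.34). FAU, which encodes RPS30 fused to a ubiquitin-like protein, had a log2 difference of 0.29 in spheres (adjusted p = 0.056) and of 0.33 in xenografts (adjusted p = 0.036). The call of FAU in xenografts was lost without any one of the 3 adherent arrays, sphere replicate 3, or xenograft replicate 2 or 3, with differences of 0.27 to 0.37, and under both other scalings at 0.29 and 0.28.

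Some further probe sets of the same genes gave larger differences than the one with the highest signal. Of the 56 genes, 34 had more than 1 probe set. Over all 117 probe sets, 14 were called higher and 4 lower in spheres, against 13.3% and 12.6% of all probe sets. In xenografts 12 were called higher and 4 lower against adherent cells, where the shares over all probe sets were 9.78% and 13.2%. Against spheres 11 were higher and 8 lower, with shares of 20.6% and 18.5%. In 10, 4 and 9 genes of the 3 comparisons the probe set with the highest signal was not called while another of the gene was. Of the 5 genes described next, RPL31, RPS15A and RPL37A had calls in opposite directions, and RPL37 and RPS24 were chosen after their values were seen.

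RPL37, a zinc finger protein of the large subunit, read 13.89, 14.02 and 13.92 in adherent cells and 13.98, 14.08 and 14.07 in spheres at 200092_s_at, which was not called. At 224763_at it read 9.78, 9.73 and 9.73 in adherent cells, 11.14, 11.19 and 11.17 in spheres, and 9.75, 9.96 and 10.01 in xenografts. The sphere values were far above both other groups, by 1.42 ± 0.09 against adherent cells, a fold of 2.68 (adjusted p = 9.4e-07). A further probe set, 224767_at, gave 1.43 ± 0.10 (adjusted p = 1.5e-06), and 224766_at gave 0.18 (adjusted p = 0.31).

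RPS15A had 2 further probe sets that moved apart. At 235309_at it read 9.23, 9.13 and 9.29 in adherent cells, 7.91, 7.98 and 7.83 in spheres, and 8.97, 9.03 and 9.39 in xenografts, and the spheres were lower than adherent cells by 1.31 ± 0.12 (adjusted p = 8.9e-06). At 229882_at it read 5.53, 5.08 and 5.29, then 6.37, 6.76 and 6.64, then 5.12, 5.25 and 5.44, and the spheres were higher than adherent cells by 1.30 ± 0.14 (adjusted p = 3.6e-05). In both the spheres stood apart and the xenografts overlapped the adherent cells.

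RPL37A, a further large subunit protein, read 14.27 to 14.30 in adherent cells and 14.30 to 14.35 in spheres at 201429_s_at, without a call. At 213459_at it read 6.97, 6.80 and 6.97 in adherent cells, 7.76, 8.51 and 8.03 in spheres, and 6.30, 6.77 and 6.81 in xenografts. The spheres were above adherent cells by 1.19 ± 0.18 (adjusted p = 0.00045), and the xenografts were below spheres by 1.47 ± 0.18 (adjusted p = 7.3e-05). At 214041_x_at the xenografts were above spheres by 0.58 ± 0.18 (adjusted p = 0.028).

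For RPL31 the probe set 200962_at read 8.28, 8.33 and 8.43 in adherent cells, 7.53, 7.44 and 7.26 in spheres, and 9.33, 8.68 and 9.35 in xenografts. It fell by 0.94 ± 0.16 in spheres (adjusted p = 0.00098), where the high-signal probe set rose by 0.25, and it rose by 0.78 ± 0.16 in xenografts (adjusted p = 0.0051). The probe set 221593_s_at of the same gene differed by 0.07 in spheres (adjusted p = 0.79) and rose by 0.77 ± 0.13 in xenografts (adjusted p = 0.0017). RPS24, of the small subunit, read 7.76, 7.60 and 7.70 in adherent cells, 7.97, 8.32 and 8.22 in spheres, and 6.27, 7.35 and 7.01 in xenografts at 1555878_at. The xenografts were lowest and widely spread, by 0.81 ± 0.22 below adherent cells (adjusted p = 0.019), while its high-signal probe set differed by 0.06 (adjusted p = 0.61). Which transcripts of a gene, spliced or unspliced, each probe set detects is not given in the sources used here.

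**Figure D4:**
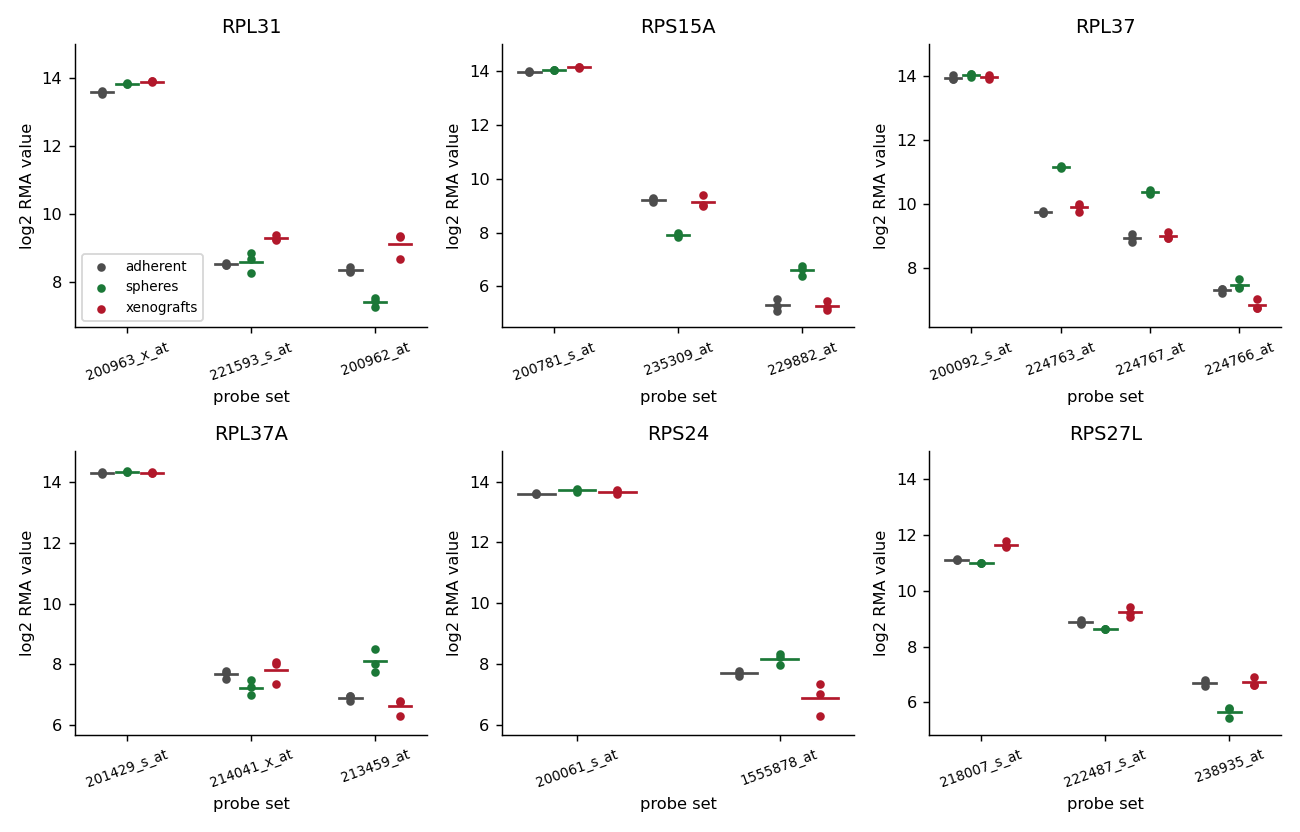
Log2 RMA values (y axis) of all probe sets (x axis, ordered by mean signal) of RPL31, RPS15A, RPL37, RPL37A, RPS24 and RPS27L, with 1 point per array, a bar at the group mean, and adherent cells in grey, spheres in green and xenografts in red. Above 13 the group means differ from adherent cells by up to 0.32 log2 units, the value of RPL31 in xenografts, which was called. Among the probe sets below 12 the spheres differ from adherent cells by -1.31 to 1.43 log2 units.

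Other genes of ribosome production and use were taken from lists. Their counts are to be read beside the shares of all genes called, which were 13.5% higher and 16.3% lower in spheres, 12.6% and 14.3% in xenografts against adherent cells, and 25.7% and 18.3% in xenografts against spheres. Those shares cover all signal levels. Median signals were 9.37 for mitochondrial ribosomal proteins, 9.53 for ribosome biogenesis, 8.41 for RNA polymerase I and 8.66 for the regulators. Between 8 and 10, 50.0%, 41.1% and 57.6% of all probe sets were called in either direction in the 3 comparisons. Of 16 measured genes outside the ribosome whose mRNAs are known to carry a TOP tract, 3 rose and 0 fell in spheres, 4 rose and 0 fell in xenografts, both against adherent cells, and 0 rose and 2 fell in xenografts against spheres. HNRNPA1, an mRNA-binding protein, rose by 0.85 (adjusted p = 7.9e-05) in spheres and by 0.52 (adjusted p = 0.0038) in xenografts, and EIF3H, a subunit of initiation factor eIF3, by 0.47 (adjusted p = 0.0020) and 0.51 (adjusted p = 0.0017). PABPC1, the poly(A)-binding protein, fell in xenografts against spheres by 0.41 (adjusted p = 0.0021). Their median differences were 0.18, 0.08 and -0.08 in the order of the 3 comparisons, beside 0.09, 0.09 and 0.02 for the ribosomal proteins.

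Mitochondrial ribosomal proteins, which build the separate ribosome inside mitochondria, were set beside the cytosolic ones. Of 75 such genes 4 rose and 26 fell in spheres, 26 rose and 1 fell in xenografts against adherent cells, and 50 rose and 1 fell in xenografts against spheres. Over all genes 13.5% rose and 16.3% fell, 12.6% rose and 14.3% fell, and 25.7% rose and 18.3% fell in the same order. The medians of the list were -0.13, 0.24 and 0.39, against -0.04, 0.08 and 0.13 for all genes. MRPL54 rose in xenografts by 0.88 (adjusted p = 0.00013), and MRPS34 fell in spheres by 0.83 (adjusted p = 0.00078). Under quantile normalization 18 fell in spheres and 39 rose in xenografts, and without xenograft replicate 3 or adherent replicate 2 the 26 that rose in xenografts were 14 or 13. The 26 that fell in spheres were 16 or 17 without adherent replicate 1 or 3 or sphere replicate 2 or 3.

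Of 26 ribosome biogenesis genes, whose products process and assemble rRNA, 3 rose and 9 fell in spheres and 2 rose and 4 fell in xenografts, both against adherent cells. UTP4, of the small subunit processome, fell by 0.75 (adjusted p = 0.00036) and 0.57 (adjusted p = 0.0036), and FBL, the rRNA methyltransferase fibrillarin, fell by 0.44 in spheres (adjusted p = 0.0037). Among 16 genes of RNA polymerase I and its factors 2 rose and 5 fell in spheres and 3 rose and 2 fell in xenografts, and POLR1A, the catalytic subunit, fell by 0.99 (adjusted p = 1.4e-05) and 0.84 (adjusted p = 0.00010). Of 37 initiation and elongation factors 6 rose and 8 fell in spheres and 3 rose and 4 fell in xenografts. For these 3 lists the shares over all genes were again 13.5% and 16.3% in spheres and 12.6% and 14.3% in xenografts.

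Regulators of ribosomal protein synthesis moved in both directions. Of 22 genes of mTORC1, LARP1 and MYC control, 5 rose and 5 fell in spheres, beside 13.5% and 16.3% of all genes, and 4 rose and 8 fell in xenografts, beside 12.6% and 14.3%. MYC, a transcription factor that drives ribosome production, read 9.40, 9.46 and 9.46 in adherent cells, 10.63, 10.59 and 10.58 in spheres, and 9.63, 9.91 and 9.69 in xenografts. It rose by 1.16 ± 0.10 in spheres (adjusted p = 4.4e-06) and by 0.31 ± 0.10 in xenografts (adjusted p = 0.038), and the 3 groups did not overlap. DDIT4, an inhibitor of mTORC1, rose by 2.32 ± 0.13 in spheres (adjusted p = 4.3e-07) and by 1.85 ± 0.13 in xenografts (adjusted p = 4.6e-06). MTOR, the kinase itself, fell by 0.53 (adjusted p = 0.0024) and 0.43 (adjusted p = 0.012), and LARP1 fell in xenografts by 0.41 (adjusted p = 0.0099). These are mRNA signals, and neither mTORC1 activity nor the translation of TOP mRNAs was measured on the arrays.

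**Figure D5:**
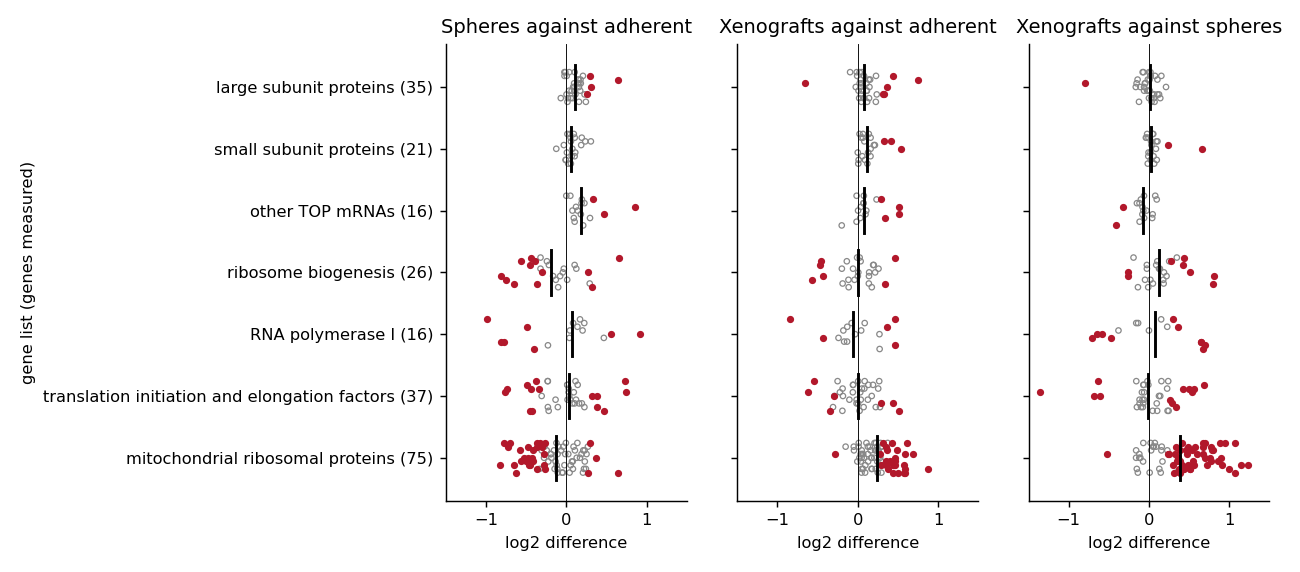
Log2 difference (x axis) of each measured gene in 7 lists (y axis, number of genes in brackets), in the 3 comparisons, with red points for genes called at a limma adjusted p under 0.05, open points for the rest and a black bar at the median. The ribosomal proteins of the 2 subunits have medians of 0.0077 to 0.12, while the mitochondrial ribosomal proteins have a median of -0.13 in spheres and 0.24 in xenografts against adherent cells.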

How the data were processed

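Gene expression was measured in 9 samples with Affymetrix U133 Plus 2.0 arrays. Per the labels and methods, RMA was run on all arrays by the authors, and the deposited values are log2 signals per probe set. The RMA version is not given in the sources used here, and neither is a test for the arrays. The 54613 probe sets left without the 62 controls entered a linear model (limma 3.58.1 under R 4.3.3) with moderated variances, a coefficient for each group and 6 degrees of freedom left. P-values were adjusted over all probe sets by the Benjamini-Hochberg method, and intervals are at 95%. Symbols came from the array annotation, under which 41091 probe sets had 1 symbol, 1801 several and 11721 none, and 0 needed an update. Precision is limited by the number of arrays.

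The members and lists were chosen with earlier results of these data known. Genes were named by rule: the 6 largest rises and falls called against adherent cells and the 4 called between xenografts and spheres, all members of the stalk, 5S RNP, ubiquitin fusion and paralog lists, the members of highest and lowest signal, genes with opposite calls between probe sets, and up to 4 called genes of other lists. RPL7 and RPL36AL of the paralog list, neither called against adherent cells, are not described. RPS9, RPL37, RPS24 and the shared probe set of RPL36A were added after their values were seen. The fit was tested on simulated data with known changes. Alternatives were other scalings, filters, variance models, probe set choices and leaving out each array.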

Additional observations from a re-analysis of the deposited data

How the results depend on the processing

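In fits of the same probe set, the direction of every called ribosomal protein gene and paralog named in the text was kept. With the brightest probe set of the _at type, RPL31 (-0.94, adjusted p = 0.00087) and RPS15A (-1.31, adjusted p = 7.1e-06) turned in spheres and RPLP2 (-0.52, adjusted p = 0.043) between xenografts and spheres, and RPL31 in spheres was -0.21 (adjusted p = 0.10) with the mean of its probe sets. Counts of ribosomal protein genes called are small numbers and moved easily. Leaving out one array at a time gave 1 to 4 genes higher in spheres (4 with all arrays; 1 without adherent replicate 1 or sphere replicate 3, 2 without any other adherent or sphere array), 4 to 8 higher in xenografts against adherent cells (8 with all arrays; 4 without adherent replicate 2, 5 without adherent replicate 1) and 1 higher in xenografts against spheres (2 with all arrays). Counts lower stayed at 0, 1 and 1. Medians ran from 0.080 to 0.098 in spheres, 0.082 to 0.11 in xenografts and 0.011 to 0.024 between them. Separated genes were 35 to 39, 30 to 37 and 16 to 22 above, and 2 to 3, 1 to 2 (2 without xenograft replicate 1) and 6 to 11 below (11 without sphere replicate 1, 10 without xenograft replicate 3).

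Called higher in spheres, in xenografts and between xenografts and spheres, the counts were 12, 19 and 4 with a variance trend, 2, 7 and 1 after centering on the array median, 4, 7 and 1 after quantile normalization, 8, 11 and 3 for probe sets above the median, 10, 8 and 1 with array weights, 5, 6 and 1 with only the compared groups fitted, 5, 5 and 5 with probe sets of the _at type alone, 11, 13 and 3 with the mean of a gene's probe sets, 3, 6 and 1 without the paralogs, 5, 9 and 4 with shared-symbol probe sets, 0, 0 and 0 at 2-fold or more, and 19, 12 and 7 by the methods' t-test after Benjamini-Hochberg adjustment (30, 26 and 11 before it). Called lower, in the same order, they were 0, 1 and 3 with a variance trend, 0, 0 and 0 for probe sets above the median and at 2-fold or more, 4, 2 and 5 with _at probe sets, 1, 1 and 4 with the mean, 1, 1 and 1 with shared-symbol probe sets, and 1, 0 and 2 by the methods' t-test (2, 1 and 3 before adjustment). Centering ended the calls of RPL31 and RPL10L in spheres, RPS25 and FAU in xenografts and RPS15 between xenografts and spheres, and quantile normalization those of RPL10L and RPL7L1 in spheres, RPL19 and FAU in xenografts and RPS15. This t-test is named in the methods for the study's assays in general. With the variance trend 14.2%, 13.1% and 25.3% of all genes were called higher, and 17.1%, 15.4% and 19% lower. For the other settings the shares over all genes are not given here. Members also varied less between replicates than all genes did (median SD 0.044 against 0.137). The counts under those settings are therefore not to be read as a rise of the set.

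Median differences were 0.061, 0.048 and -0.0022 after quantile normalization, 0.053, 0.035 and 0.0079 after centering, and 0.11 in xenografts with _at probe sets. Separated genes above were 24, 18 and 12 after quantile normalization, 16, 16 and 11 after centering, and 15, 14 and 11 with _at probe sets. Below, they were 3, 4 and 7, then 6, 1 and 7, then 5, 2 and 5. With the mean of probe sets 5, 2 and 7 were below, for probe sets above the median 2, 0 and 5, and without the paralogs 1, 1 and 6. The shared-symbol probe sets, single genes as means of probe sets, and the counts of separated genes under alternatives were chosen after seeing the data.

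Same-numbered samples were not paired, since the correlations of their deviations ran from -0.18 to 0.18. With a replicate block 2, 8 and 1 genes were higher and 0, 1 and 1 lower. Under all alternatives together, 71 single-gene calls were lost and 55 gained, and the cause was not tested. Of differences past the threshold in neither fit, 55 changed sign. Of the list counts recomputed, 1237 stayed within 1.5 times their value and 245 did not. For mitochondrial ribosomal proteins the 26 that fell in spheres were 10 with _at probe sets, and the 26 that rose in xenografts were 7 with these and 9 by the t-test.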

Other observations

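A further 64 probe sets carried a ribosomal protein symbol together with another, often that of a small nucleolar RNA encoded in an intron of the gene, and 15 genes were measured only on these. Their mean log2 signals ran from 12.46 to 14.33, within the range of the members that lie at the top of the scale. Median differences of the 15 genes were 0.08 in spheres, 0.08 in xenografts and -0.0061 between xenografts and spheres. In spheres 1 of the 15 was called higher and 1 lower, in xenografts 1 was higher and 0 lower (limma), and against spheres 2 were higher and 0 lower. Over all genes 13.5% were called higher and 16.3% lower, 12.6% and 14.3%, and 25.7% and 18.3% in the same order. The sphere differences of the 15 genes ran from -0.31 to 0.26.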
